A study of Sus scrofa with 8 samples.

Results

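The miRNAs of the miR-17-92 cluster and of its paralogs, the miR-106a-363 and miR-106b-25 clusters and the related miR-92b, were examined in the livers of young and old sows. They were taken from the table of all miRNAs by name, after removal of the prefix ssc-, as miR-17, miR-18a, miR-18b, miR-19a, miR-19b, miR-20a, miR-20b, miR-25, miR-92a, miR-92b, miR-93, miR-106a, miR-106b and miR-363 with or without an arm suffix, a rule that uses names and no measured values. The choice held 23 of the 888 names of the table, of which 9 carried the pig prefix and 14 did not, and they stand for 14 distinct miRNAs. The animals were 4 healthy sows of the Chinese Yana breed, with no shared ancestors in recent generations. The young livers (YL) came from 2 sows aged 180 days and the old livers (OL) from 2 sows aged 8 years, and each sow gave 1 small RNA-seq library and 1 RNA-seq library. The labels name no treatment and no allele for either group. These ages lie near puberty and near the end of reproductive life, so age and reproductive stage cannot be told apart.

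A miRNA is cut from a hairpin whose 5p and 3p arms can each give a mature strand, and the strand loaded into an Argonaute protein represses mRNAs that pair with its seed near the 5′ end. The cluster miR-17-92 is transcribed as a single RNA that carries the hairpins of miR-17, miR-18a, miR-19a, miR-20a, miR-19b and miR-92a, while miR-106b, miR-93 and miR-25 lie in an intron of MCM7, a subunit of the replicative helicase. The cluster is known as a target of MYC and E2F factors, as a brake on genes such as BCL2L11 that restrain survival, and as active in proliferating cells, including liver tumours. By their known seeds the members form 4 families, named here after miR-17 (with miR-20a, miR-20b, miR-93, miR-106a and miR-106b), miR-18, miR-19 and miR-92 (with miR-25, miR-92b and miR-363).

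In the RefSeq annotation of Sscrofa11.1, used only for names and order, MIR17, MIR18A, MIR19A, MIR20A, MIR19B-1 and MIR92A-1 lie next to each other as a run of 6 hairpins. Another run of 6 holds MIR106A, MIR18B, MIR20B-1, MIR19B-2, MIR92A-2 and MIR363-1, while MIR92B lies apart from both. The mature miR-92a and miR-19b can each come from 2 hairpins, 1 in each run, so their reads cannot be assigned to a cluster. Members that differ at few bases, such as miR-17 and miR-106a or miR-20a and miR-20b, can also share reads, and how such reads were divided is not stated, so the split between them is uncertain.

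The small RNA-seq values are normalized read counts whose total is not stated, and 1 read was worth between 0.962 and 1.33 units in the 4 libraries. The values summed over all names corresponded to between 11661943 and 14139461 reads per library, and reads can stand under several names. As a share of listed reads, with the names found to repeat others counted once, the members held 1.17% (95% Wilson interval 1.162% to 1.175%) in young replicate 1, 1.2% (1.196% to 1.21%) in young replicate 2, 1.49% (1.48% to 1.495%) in old replicate 1 and 1.9% (1.89% to 1.908%) in old replicate 2. Both old livers were above both young livers in this share. Intervals of shares cover counting error only. A count of 0 allows up to 3 reads, or between 2.89 and 4.0 units.

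The hepatocyte marker miR-122 was abundant in all 4 libraries, at 4583851, 2604955, 3567828 and 4163798 units in the order young replicate 1, young replicate 2, old replicate 1 and old replicate 2, which is used for all quartets of values here. The albumin mRNA ALB was at 29468, 35205, 16534 and 23978 CPM. Of 9 hepatocyte mRNAs listed, 7 had an identifier, and their summed level was between 33301 and 55174 CPM, with both old livers below both young. Most of that sum is ALB, and of the 7 only 2, ALB and APOB, were lower in both old livers, while APOA1 and FGB had log2 fold changes of 0.23 and 0.08. The opposite arm miR-122-3p was at 3559, 2138, 10094 and 8242 units, higher in both old livers. Markers of other cells also moved with age, and because the samples are whole tissue, fewer cells of a type and less RNA per cell cannot be told apart. The 10 of 13 listed leukocyte mRNAs with an identifier summed to 60.8, 62.9, 107 and 137 CPM. Most of that sum is CD14 and CD68. By mean log2 value 7 of the 10 were higher in the old livers and 3 lower. Both old livers were above both young for 5 (24.4% of all mRNAs), among them S100A8 at 0 in both young livers. They were below both young for 2 (25% of all mRNAs), PTPRC at 5.39, 5.78, 5.17 and 3.05 CPM and CD79B. The leukocyte miRNA miR-150-5p was at 903, 888, 3087 and 4159 units and miR-223-3p at 9824, 12265, 37596 and 16113 units, and these 2 and miR-223-5p were higher in both old livers. The other 2 of the 5 leukocyte miRNA names, ssc-miR-142-5p at 3662, 2096, 4715 and 1835 units and ssc-miR-142-3p at 5201, 3380, 5898 and 3391 units, overlapped between the ages, and their log2 fold changes of 0.09 and 0.09 turned to -0.12 and -0.11 after TMM. The skeletal muscle miRNA ssc-miR-206 was at 4.0, 3.85, 79.6 and 295 units. The names ssc-miR-1 and miR-1-3p count as 1 observation, since their reads kept nearly the same ratio in every library. They were also higher in both old livers. So was ssc-miR-133a-5p, by less, at 18.7, 17.3, 20.5 and 29.7 units. The name ssc-miR-133a-3p, at 643, 533, 598 and 1470 units, overlapped between the ages. ACTA1, the 1 of 5 listed skeletal muscle mRNAs with an identifier, was at 0.577, 0.196, 0.016 and 0.863 CPM. The erythroid miRNAs, which sum to 173617, 97322, 134931 and 74554 units, overlapped between the ages. The 5 of 10 listed erythroid mRNAs with an identifier summed to 622, 429, 306 and 405 CPM, with the old livers below the young. Nearly all of that sum is HBB. By mean log2 value 3 of the 5 were higher in the old livers and 2 lower. Both old livers were below both young for 2, HBB and ALAS2 (25% of all mRNAs). They were above both young for 2, EPB42 and KLF1 (24.4% of all mRNAs). These had 0 reads in both young livers, and in the old livers 4 and 8 reads for EPB42 and 1 and 3 reads for KLF1. The endothelial miRNA sums, between 64613 and 187525 units, overlapped as well. The 2 of 6 listed endothelial mRNAs with an identifier summed to 21.1, 18.8, 26.1 and 24.0 CPM, higher in both old livers. Of these, PECAM1 was higher in both old livers (log2 fold change 0.84), while KDR overlapped between the ages (log2 fold change -0.89). The part of these other cells in the results on the members was not tested.

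The members were unequal in abundance. The 4 most abundant, ssc-miR-92a, miR-93-5p, miR-19b-3p and miR-25-3p, held between 92.4% and 96.8% of the members' reads in each library. All 23 names passed the filter of a value above 0 in at least 2 libraries, and 17 had a mean of at least 100 units. The name ssc-miR-18b was the exception to detection in every library, with 2 and 4 reads in the young livers and 0 reads in both old livers. Mature miRNAs are of nearly equal length, so their values were compared without a correction for length.

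**Figure D1:**
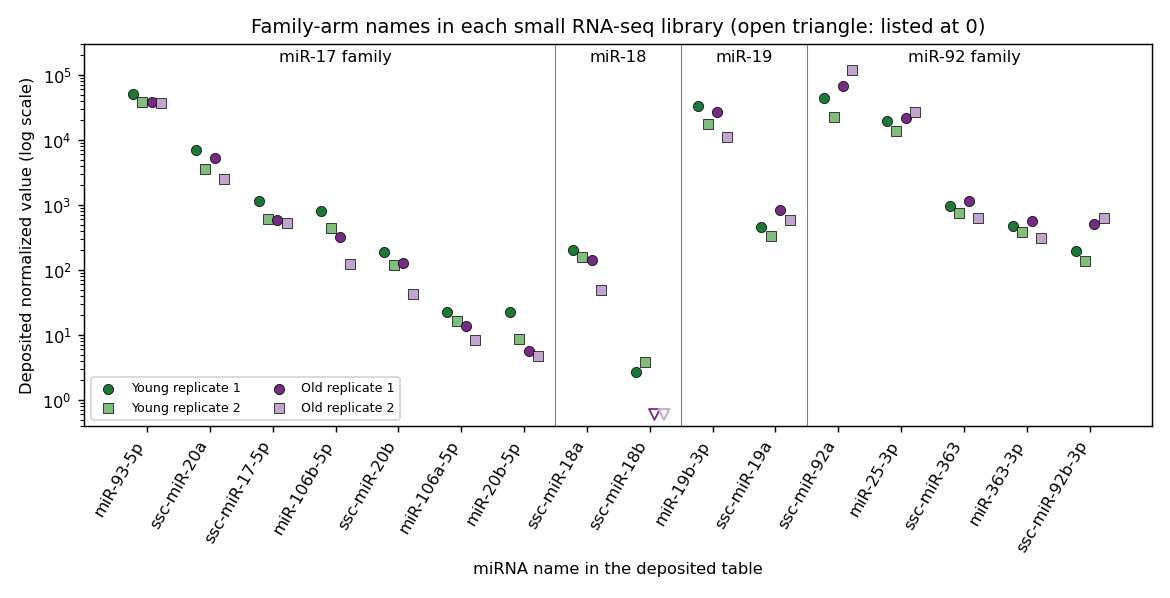
Deposited normalized value (log axis) of the 16 names that lie on the arm that carries the family seed, in each of the 4 small RNA-seq libraries, with circles for replicate 1 and squares for replicate 2, green for young and purple for old livers, and open triangles for values listed at 0. The old livers sit above the young for ssc-miR-92a, ssc-miR-92b-3p, miR-25-3p and ssc-miR-19a, and at or below them for most names of the miR-17 and miR-18 families.

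Old and young livers were compared with limma on log2(value + 1) over the 867 names that passed the filter, a scale on which changes of low values are understated. Each SE is the moderated one of limma, in which the spread of a name is drawn toward that over all names. A call needed an adjusted p under 0.05 and a log2 fold change beyond 1 either way. No name passed, so 0 of 23 members were called against 0% of all names. At an unadjusted p under 0.05, 72 names (8.3%) were higher and 31 (3.58%) lower, and among members 1 was higher (ssc-miR-92b-3p) and 1 lower (ssc-miR-18b). The latter passed the filter only through its 2 and 4 reads in the young livers, so its p rests on the zeros of the old livers and nothing is read from it. The exact test of edgeR on recovered reads called 26 names (3%, with 1.73% higher and 1.27% lower), of which 1 was a member, ssc-miR-92b-3p, in the higher direction. The quasi-likelihood test of edgeR called 0 names, and at an unadjusted p under 0.05 it had 2 members higher (7.5% of all names) and 3 lower (6.57% of all names). DESeq2 called 43 names (4.96%), with the members ssc-miR-92b-3p and ssc-miR-92a higher (3.46% of all names) and miR-106b-5p lower (1.5% of all names). The choice of test therefore sets whether a member is called, and the terms higher and lower are used below for measured values.

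By mean log2 value, 8 members were higher and 15 lower in the old livers, while 58.4% of all names were higher. The median log2 fold change was -0.04 over the members and 0.18 over all names, and rescaling the libraries with TMM factors moved the median of all names by -0.19, to -0.01. With TMM factors 6 members were higher and 17 lower, beside 49.9% of all names higher. Both old livers were above both young livers for 4 members (28.3% of all names) and below them for 8 members (16.1% of all names), ssc-miR-18b among them. After TMM these counts were 4 (22.8%) and 9 (28%).

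**Figure D2:**
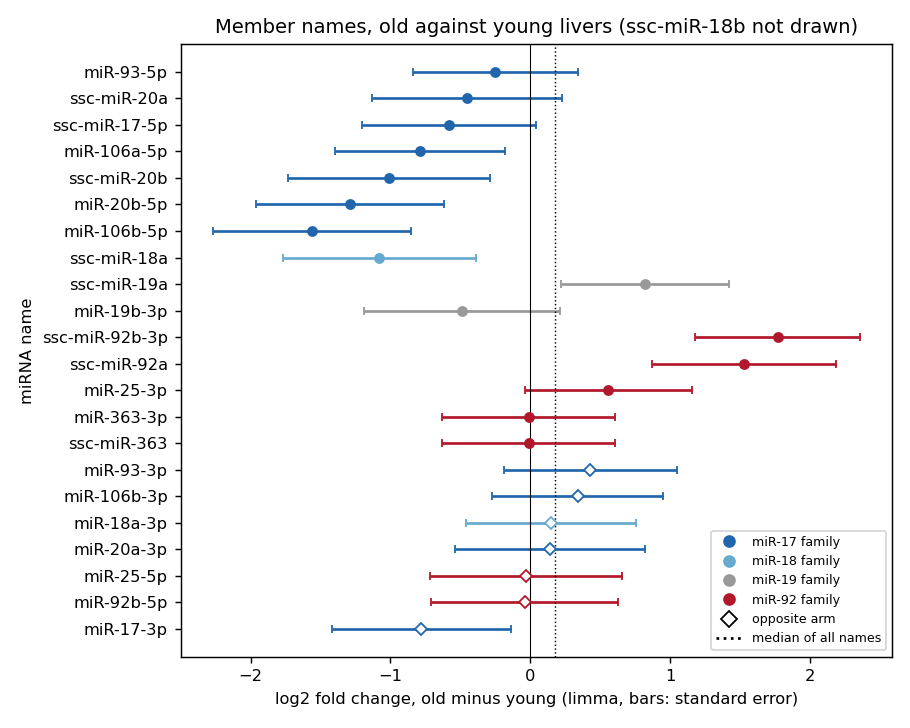
Log2 fold change of old over young livers by limma on the deposited values for 22 of the 23 member names (ssc-miR-18b, with at most 4 reads in any library, is not drawn), with bars for the standard error from 2 libraries per age, colours for the families, open diamonds for the arm opposite the seed arm and a dotted line at the median of all names, 0.18. The standard errors are moderated by limma over all names. All names on the seed arm of the miR-17 family lie below 0, while ssc-miR-92b-3p at 1.77 and ssc-miR-92a at 1.53 lie farthest above it.

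In the miR-92 family, whose members are known to repress targets such as integrin and cell death genes, 3 of the 5 names on the seed arm, of which ssc-miR-363 repeats the reads of miR-363-3p, had both old livers above both young, against 28.3% of all names (22.8% after TMM). The name ssc-miR-92b-3p was at 197, 140, 515 and 624 units, so both old livers lay above both young livers by more than the spread within either age. Its log2 fold change was 1.77 (SE 0.59) with an adjusted p of 0.305 by limma, or 1.59 relative to the median of all names, and 1.57 with an adjusted p of 0.0185 by the exact test of edgeR. The most abundant member, ssc-miR-92a, was at 43922, 22375, 67140 and 121301 units. The old livers were again higher without overlap, but the gap between the nearest young and old livers was smaller, on the log2 scale, than the spread within either age. Its log2 fold change was 1.53 (SE 0.66) with an adjusted p of 0.417 by limma, or 1.34 relative to the median of all names, and the adjusted p was 0.0897 by the exact test of edgeR and 0.0222 by DESeq2. It ranged from 1.04 to 2.01 when each library was left out.

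The partner miR-25-3p was at 19694, 13562, 21504 and 27055 units, with a log2 fold change of 0.56 (SE 0.60) and an adjusted p of 0.766 by limma, and the gap between young replicate 1 and old replicate 1 was small beside the spread between the young livers. For miR-363, from the end of the miR-106a-363 cluster, the 2 names moved as 1 because ssc-miR-363 carried exactly 2 times the reads of miR-363-3p in every library. The values of miR-363-3p were 480, 378, 570 and 315 units, the ages overlapped, and the log2 fold change was -0.01 (SE 0.62). The values of ssc-miR-363 were 960, 756, 1139 and 630 units. The family's summed value, with repeated reads counted once, was 64294, 36454, 89729 and 149296 units, or 2.37-fold higher in the old livers on the means (log2 1.25, or 1.10 after TMM, beside a pooled SD of 0.55 between libraries of an age).

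In the miR-17 family, whose seed is known to target CDKN1A, TGFBR2 and other genes of cell cycle exit and TGF-β signalling, all 7 names on the seed arm were lower by mean log2 value, as they were after TMM. Both old livers were below both young livers for 5 of the 7, against 16.1% of all names, and for 6 of the 7 after TMM, against 28% of all names. Among these names, ssc-miR-20b and miR-20b-5p stand for the same miRNA, and members that differ at few bases can share reads. They therefore cannot be taken as 7 separate observations.

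The most abundant of them, miR-93-5p, was at 51281, 38913, 37874 and 37207 units. The 2 old livers lay just below young replicate 2, and the log2 fold change was -0.25 (SE 0.59) with an adjusted p of 0.895 by limma. The founding member ssc-miR-17-5p was at 1159, 614, 596 and 534 units, with the old livers again just below young replicate 2 and young replicate 1 well above the rest (log2 fold change -0.58, SE 0.62, adjusted p of 0.767 by limma). Without young replicate 1 its log2 fold change was -0.12 and that of miR-93-5p was -0.05. For ssc-miR-20a the values were 7049, 3624, 5381 and 2554 units, the ages overlapped, and the log2 fold change of -0.45 (SE 0.68) was 0.03 without young replicate 1 and 0.09 without old replicate 2.

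The largest difference of the family among names with a mean of at least 100 units was that of miR-106b-5p, at 804, 445, 326 and 125 units. Its log2 fold change was -1.56 (SE 0.71), or -1.74 relative to the median of all names, with an adjusted p of 0.437 by limma, 0.118 by the exact test of edgeR and 0.0331 by DESeq2. It ranged from -2.25 to -0.87 when each library was left out. The name ssc-miR-20b was at 192, 117, 127 and 42.8 units, where old replicate 1 overlapped the young livers (log2 fold change -1.01, SE 0.72, adjusted p of 0.627 by limma), and the log2 fold change was -0.24 without old replicate 2 and -1.79 without old replicate 1. The other name of this miRNA, miR-20b-5p, and miR-106a-5p were below 23 units in every library, and both were lower in both old livers. The family's summed value was 60531, 43738, 44323 and 40475 units, a log2 ratio of -0.30 (-0.49 after TMM) that is near its pooled SD of 0.24 and was -0.04 without young replicate 1.

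In the miR-18 family, miR-18a is known for a terminal loop whose processing needs the protein hnRNP A1. The name ssc-miR-18a was at 201, 161, 142 and 49.95 units, with old replicate 1 close to young replicate 2 (log2 fold change -1.08, SE 0.69, adjusted p of 0.594 by limma). The difference was -0.34 on the log2 scale when old replicate 2 was left out and -1.83 when old replicate 1 was. For ssc-miR-18b the 2, 4, 0 and 0 reads all lie at or close to the limit that a count of 0 allows, so no fold is given and the depth is too low to set the ages apart. The summed value of the family was 204, 165, 142 and 49.95 units, a log2 ratio of -0.94 (-1.15 after TMM) beside a pooled SD of 0.77.

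In the miR-19 family, known as the chief oncogenic part of the cluster in lymphoma, the 2 names went opposite ways. The name ssc-miR-19a was at 459, 337, 832 and 584 units, with both old livers above both young (log2 fold change 0.82, SE 0.60, adjusted p of 0.634 by limma). The more abundant miR-19b-3p was at 33732, 17805, 27066 and 11258 units, and the ages overlapped (log2 fold change -0.49, SE 0.70, adjusted p of 0.824 by limma). The family's summed value was therefore 34191, 18142, 27899 and 11842 units, a log2 ratio of -0.40 beside a pooled SD of 0.77, which was 0.13 without young replicate 1 and 0.09 without old replicate 2.

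The composition of the members' reads differed between the ages. The name ssc-miR-92a alone took 27.3%, 22.5%, 41.1% and 59.6% of them. The miR-92 family took 40%, 36.6%, 54.9% and 73.4%, higher in both old livers. The miR-17 family took 37.6%, 44%, 27.1% and 19.9%, lower in both old livers. The miR-19 family took 21.3%, 18.2%, 17.1% and 5.82%, and here old replicate 1 was close to young replicate 2 while old replicate 2 lay far below. The miR-18 family took at most 0.165% in any library. Because these are shares of 1 whole, a higher share of miR-92a lowers the others.

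Ratios of reads within a library do not depend on the scaling between libraries, and they compare miRNAs that leave the same primary transcript, apart from the second hairpin of miR-92a and miR-19b. The ratio of ssc-miR-92a to ssc-miR-17-5p was 37.9, 36.4, 113 and 227, or 4.31-fold higher in old livers on the log2 means. The ratio of ssc-miR-92a to ssc-miR-20a was 6.23, 6.17, 12.5 and 47.5, that to miR-19b-3p was 1.3, 1.26, 2.48 and 10.8, and that to ssc-miR-18a was 218, 139, 472 and 2430. In these 4 ratios both old livers lay above both young livers, with old replicate 2 highest, and in the first 3 the young livers lay close together. The ratio of ssc-miR-92a to ssc-miR-19a, at 95.7, 66.4, 80.7 and 208, overlapped between the ages. The ratio of ssc-miR-19a to miR-19b-3p, at 0.0136, 0.0189, 0.0308 and 0.0519, was higher in both old livers, as ssc-miR-19a was against 145 of 253 other names (57.3%).

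With 2 livers per age, the smallest p that an exact two-sided permutation test allows is 0.333, and this is the value for each of the 4 separated ratios of ssc-miR-92a. The separation is also common for this miRNA: the ratio of ssc-miR-92a was higher in both old livers against 202 of the 253 other names (79.8%) with at least 100 reads in every library, with a median log2 change of 1.39 over those names. Among all 32131 pairs of such names, 57.5% separated by age in either direction. The log2 changes of the 4 ratios, taken because they separated by age, were 2.11, 1.97, 2.01 and 2.62, above that median. The log2 change of the ratio of ssc-miR-92a to ssc-miR-19a, 0.70, was below it.

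**Figure D3:**
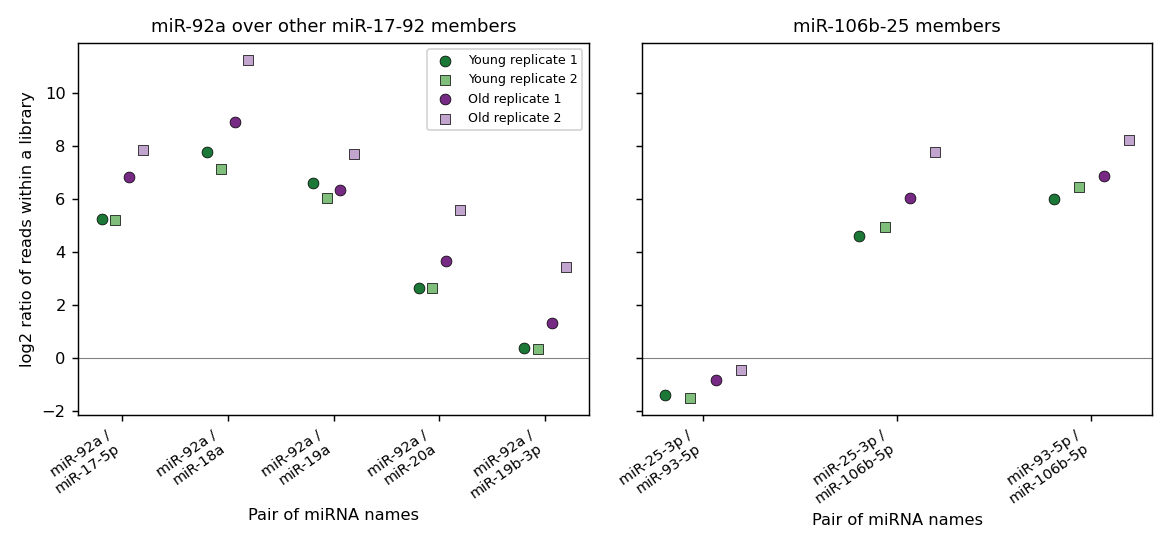
Ratios of reads between members of a cluster within each library, on a log2 axis, for ssc-miR-92a over 5 other members of miR-17-92 (left) and for 3 pairs of miR-106b-25 (right), with young livers in green and old livers in purple. The ratio of ssc-miR-92a to ssc-miR-17-5p sits at 37.9 and 36.4 for young against 113 and 227 for old livers, and that of miR-25-3p to miR-106b-5p at 24.5 and 30.5 against 65.9 and 217.

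In the cluster miR-106b-25 the ratios also separated by age. The ratio of miR-25-3p to miR-106b-5p was 24.5, 30.5, 65.9 and 217 (log2 change 2.13). The ratio of miR-25-3p to miR-93-5p was 0.384, 0.349, 0.568 and 0.727 (log2 change 0.81), and that of miR-93-5p to miR-106b-5p was 63.7, 87.5, 116 and 298 (log2 change 1.32). Each of the 3 separated by age with an exact permutation p of 0.333, and miR-25-3p was higher in both old livers against 118 of 253 names (46.6%) and miR-93-5p against 25 of 253 (9.88%). Thus the miR-92 family member of this cluster was higher relative to its miR-17 family neighbours in both old livers, as ssc-miR-92a was in the other cluster. Between the clusters, the ratio of ssc-miR-92a to miR-25-3p was 2.23, 1.65, 3.12 and 4.48, while that of ssc-miR-92b-3p to ssc-miR-92a overlapped between the ages.

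For 7 hairpins both arms were listed, and the arm opposite the seed arm is given here as a share of the reads of both. The names ssc-miR-18a and ssc-miR-20a give no arm and were taken as the 5p arm. The share of miR-106b-3p was 50.2% (95% Wilson interval 47.4% to 53.1%) and 52.6% (49.4% to 55.7%) in young livers, and it was 67.9% (64.8% to 70.9%) and 88.2% (85.9% to 90.1%) in old livers. The young livers agree within counting error, and the old livers lay above them and apart from each other. The 3p arm itself was at 812, 493, 690 and 932 units (log2 fold change 0.34, SE 0.61), which overlaps between the ages, while its 5p arm was lower in both old livers as given above.

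There were 78 hairpins with an arm suffix on both names and at least 100 reads of both arms together in every library. Of these, the less abundant arm took a higher share in both old livers for 23 (29.5%) and a lower share for 23 (29.5%). The less abundant arm of miR-106b was the 5p arm, so this hairpin is among those with a lower share. Its gap between the ages was the second by size. The hairpins of miR-18a and miR-20a are not among the 78. The share of miR-18a-3p was 23%, 18.5%, 25.6% and 52.8%, from 196, 205, 168 and 89 reads of both arms, and the interval of old replicate 1 (19.6% to 32.7%) covers the value of young replicate 1. The shares of miR-20a-3p, at 1.91%, 2.03%, 2.97% and 2.89%, and of miR-93-3p, at 0.608%, 0.524%, 0.718% and 1.13%, were also higher in both old livers. The share of miR-92b-5p was lower in both, at 6.92%, 3.97%, 2.16% and 1.13%, from 11, 6, 10 and 6 reads of that arm. Its intervals in young replicate 2 (1.83% to 8.4%) and old replicate 1 (1.18% to 3.93%) overlap. Intervals of a young and an old liver also overlap for miR-20a-3p and miR-93-3p. The shares of miR-17-3p and miR-25-5p overlapped. An exact permutation test gave 0.333 for each of the 5 separated hairpins, the smallest p it allows.

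The 7 names on the arm opposite the seed ranged from 5.77 to 932 units and from -0.78 to 0.43 in log2 fold change, with 4 higher and 3 lower. The passenger strand miR-93-3p was at 313, 205, 274 and 427 units, with overlapping ages (log2 fold change 0.43, SE 0.62). The name miR-17-3p was at 193, 125, 67.1 and 121 units, just separated by age (log2 fold change -0.78, SE 0.64, adjusted p of 0.676 by limma). The name miR-20a-3p was at 137, 75.1, 165 and 76.1 units, and its log2 fold change of 0.14 (SE 0.68) turned to -0.06 after TMM. That of miR-18a-3p turned from 0.15 to -0.05 after TMM, while miR-25-5p and miR-92b-5p had log2 fold changes of -0.03 and -0.04.

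**Figure D4:**
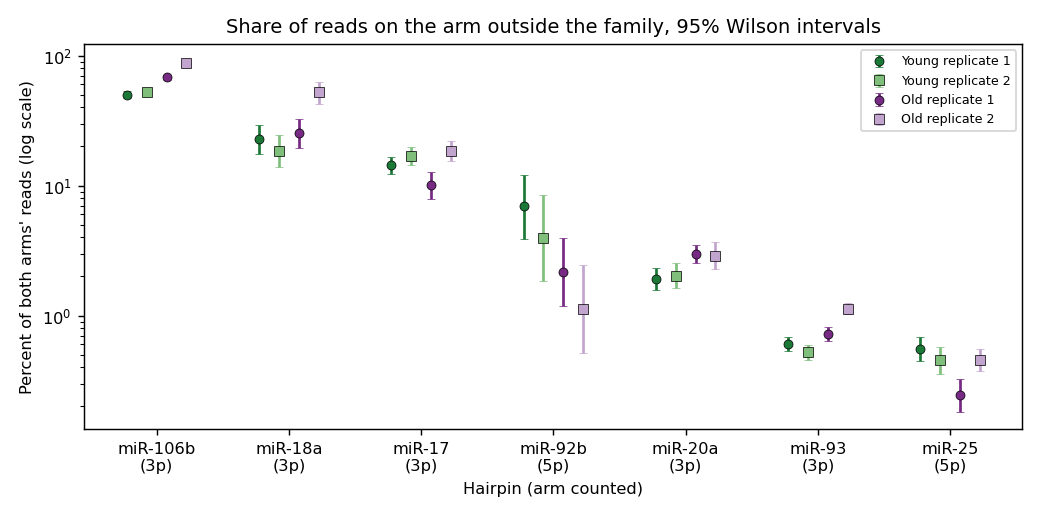
Share of reads on the arm opposite the seed arm (percent of both arms' reads, log axis) for the 7 hairpins with both arms listed, per library, with 95% Wilson intervals that cover counting error only. For miR-106b young livers sit at 50.2% and 52.6% and old livers at 67.9% and 88.2%.

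The RNA-seq libraries of the same livers gave mRNA levels in CPM, from between 22482241 and 37555696 reads on listed mRNAs per library. Of 16898 mRNAs tested with limma on log2(CPM + 1), 0 were called (0%), with 1145 (6.78%) higher and 1509 (8.93%) lower at an unadjusted p under 0.05, while the exact test of edgeR called 457 higher (2.7%) and 77 lower (0.456%). On the scale used for limma, changes of mRNAs at low CPM are understated. Of the transcription factors known to act on the cluster, 4 of 7 listed could be matched. MYC, which activates the cluster, was at 0.653, 0.000, 2.78 and 6.54 CPM, so both old livers lay above both young (log2 fold change 2.05, SE 0.49, adjusted p of 0.255 by limma). By the exact test of edgeR its log2 fold change was 4.06 with an adjusted p of 0.425. E2F1, at 0.011, 0.058, 0.097 and 0.181 CPM, and MYCN, at 0.403, 0.116, 0.309 and 0.362 CPM, were low in all libraries. MCM7, the host gene of miR-106b-25, was not matched to an identifier and was not analysed here. Of the other subunits of its helicase, 4 were measured, 2 higher and 2 lower, and of 6 cell division genes 2 were higher and 4 lower, with no call by limma or the exact test of edgeR in either list. The higher cell division genes, CDK1 (log2 fold change 0.04) and BUB1 (0.00), had at most 8 reads in any library, so no direction is read from them. Both old livers were above both young for 0 of the 6 (24.4% of all mRNAs) and below them for 2 (25%), TOP2A and CCNB1. The helicase gene MCM2 had 1, 9, 9 and 11 reads.

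Of 40 mRNAs listed as known targets of these miRNAs, 31 had an identifier and 30 were tested, since CDKN1A was listed at 0 in all 4 libraries. They split evenly, with 15 higher and 15 lower, a median log2 fold change of 0.01 against -0.02 for all mRNAs, and log2 fold changes from -0.97 to 2.47. Of all mRNAs, 47.1% were higher by mean log2 value. Both old livers were above both young for 5 targets (24.4% of all mRNAs) and below them for 8 (25% of all mRNAs). By limma 0 targets were called (0% of all mRNAs). At an unadjusted p under 0.05 by limma, 2 were higher (6.78% of all mRNAs) and 1 lower (8.93% of all mRNAs). By the exact test of edgeR 1 was called, in the higher direction (2.7% of all mRNAs). That target was ZFPM2, a cofactor of GATA factors, at 0.381, 0.116, 4.18 and 8.17 CPM (log2 fold change 2.47, SE 0.36, adjusted p of 0.213 by limma, and 4.84 with an adjusted p of 0.000106 by the exact test of edgeR). The TGF-β receptor TGFBR2, a miR-17 family target, was at 9.49, 6.24, 19.6 and 21.4 CPM, higher in both old livers (log2 fold change 1.30, SE 0.24, adjusted p of 0.228 by limma). MAPK9, a stress kinase, was at 4.84, 6.18, 1.72 and 3.02 CPM, lower in both old livers (log2 fold change -0.97, SE 0.27, adjusted p of 0.279 by limma). RB1, the retinoblastoma protein, was at 0.642, 1.04, 0.325 and 0.459 CPM, also lower in both (log2 fold change -0.40, SE 0.17, adjusted p of 0.404 by limma).

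**Figure D5:**
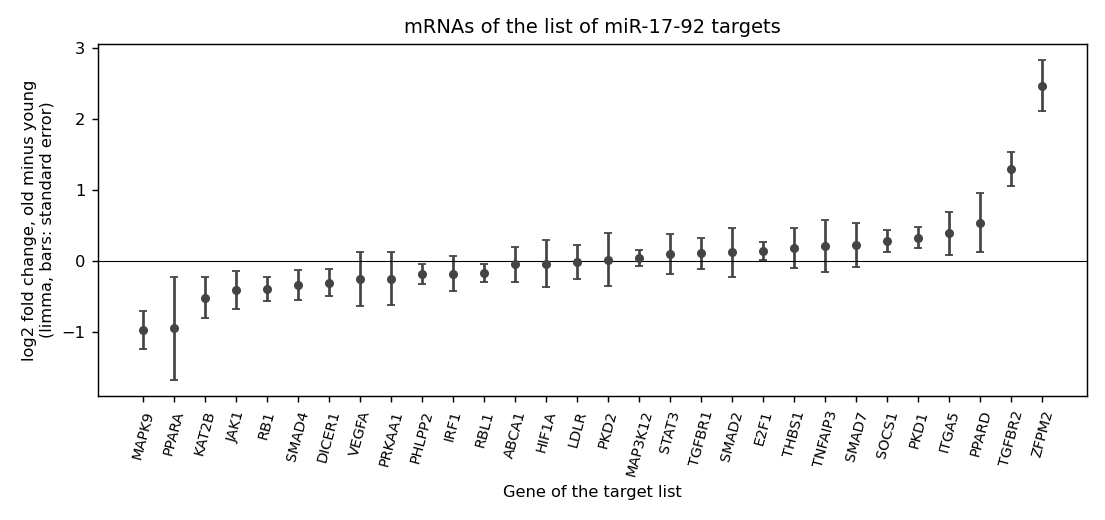
Log2 fold change of old over young livers by limma on log2(CPM + 1) for the 30 tested mRNAs of the target list, in rising order, with bars for the standard error from 2 libraries per age. The standard errors are moderated by limma over all mRNAs tested. The values run from -0.97 for MAPK9 to 2.47 for ZFPM2, with 15 on each side of 0. Changes of mRNAs at low CPM are understated on this scale.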

How the data were processed

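Each of 2 young and 2 old sows gave 1 liver small RNA-seq library and 1 liver RNA-seq library, grouped by the age in the labels, which name no batch. The deposited miRNA values, a normalized signal that the authors name TPM, were made with mirdeep2 against miRBase and scaled to a library total that is not stated. The deposited mRNA values, used here as CPM, which they also name TPM, were made by the authors from TopHat2 alignments to Sscrofa10.2 and StringTie assemblies. The submitters' processing notes name TopHat2 2.0.14, StringTie 1.2.3 and Salmon 0.6.0. In each library 100% of the values above 0 were whole multiples, within 0.05 of a read, of 1 step that did not change between features, so whole reads were recovered and no length enters the values. The lncRNA and circRNA values were not used here. RNA-seq was from rRNA-depleted RNA.

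Values were tested with limma 3.58.1 on log2(value + 1) over features above 0 in at least 2 libraries, in a fit over the whole table with Benjamini-Hochberg adjustment, and called at an adjusted p under 0.05 with a log2 fold change beyond 1 either way. The exact and quasi-likelihood tests of edgeR 4.0.16, and DESeq2 1.42.0 for miRNAs, were run on recovered reads in R 4.3.3. Ratios, arm shares and Wilson intervals were computed in Python 3.11.15 with scipy 1.17.1. The tests were tried on simulated counts. Each fold change compares animals of unlike age that share no family, so p-values rest on 2 animals per age. In limma the spread between these animals is moderated, that is drawn toward the spread over all features. The SE and p-values of limma therefore do not measure the spread of 1 feature alone.

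The rule for the members uses only names, but the set of miRNAs and the gene lists were picked with earlier results of these data known. Members with a mean of at least 100 units are given in every library, and of the target list the 4 genes with the smallest unadjusted p. Genes were joined by symbol, which 11654 of 21607 mRNA identifiers had. The values of 1 matched regulator are not reported here. Members were grouped into families by their known seeds, since mature sequences were not used here. A name with 50 or more reads whose reads were a whole multiple of those of another name within 1% was counted once in sums, which applied to 7 names. Other pseudocounts, filters, scalings, tests and sets of names, a mean-variance trend, a replicate block and the omission of each library were tried as alternatives.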

Additional observations from a re-analysis of the deposited data

How the results depend on the processing

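With 2 sows per age, a single library can decide a direction. The count of miRNA names called, 0 in limma, was 18 with a mean value of at least 10, 6 with known names only, 7 with a mean-variance trend, 26 by the exact test of edgeR and 43 by DESeq2, and between 0 and 36 when each library was left out (22 without old replicate 1 and 36 without old replicate 2). The count of members called was 0 under every alternative except the exact test of edgeR (1) and DESeq2 (3). Between 5 and 13 of 23 members were higher in old livers when each library was left out, with 13 without young replicate 1, 5 without young replicate 2 and 13 without old replicate 2. The log2 fold change of miR-20a-3p was -0.06 with TMM factors and -0.02 with the median ratio, and from -0.41 (without old replicate 1) to 0.69 when libraries were left out. Leaving out a library also turned the sign for ssc-miR-363 and miR-363-3p (-0.43 to 0.42, positive without young replicate 1 or old replicate 2), ssc-miR-20a (-0.98 to 0.09, positive without the same libraries), miR-19b-3p (-1.12 to 0.14, positive without old replicate 2) and miR-106b-3p (-0.02 to 0.70, negative without young replicate 2). It did so too for the low names miR-18a-3p (-0.20 to 0.50, negative without young replicate 2), miR-92b-5p (-0.64 to 0.57, positive without young replicate 1 or old replicate 2) and miR-25-5p (-0.64 to 0.59, positive without young replicate 1 or old replicate 1). For family sums the log2 ratio ranged from -0.51 to -0.04 (without young replicate 1) for miR-17, from -1.88 (without old replicate 1) to -0.37 for miR-18, from -1.14 to 0.13 for miR-19 and from 0.83 to 1.71 for miR-92, and with pig names only that of miR-19 was 0.83, since this leaves out miR-19b-3p. The mRNA count, 0 in limma, was 2 with a mean of at least 1 and 534 by the exact test of edgeR. The causes of these differences were not tested. The log2 changes of ssc-miR-92b-3p, ssc-miR-92a and miR-106b-5p kept their sign under every alternative run. So did those of ssc-miR-19a, miR-25-3p, miR-93-3p, ssc-miR-17-5p, miR-93-5p, ssc-miR-18a, ssc-miR-20b and miR-17-3p, so this is not particular to the first names.

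Equal replicate numbers join unrelated sows, and differences between replicates of the young livers and of the old livers correlated at -0.02 over miRNAs and 0.09 over mRNAs. A fit with the replicate block called 0 miRNA names, 0 members and 0 mRNAs, and had 8 members higher in old livers. Reads limit ssc-miR-18b, with at most 4 reads in a library.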

Other observations

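A pair of names on the arm opposite the seed carry a hairpin number and were left out of the members by the naming rule. The name miR-92a-1-5p, from the hairpin of miR-92a in the miR-17-92 run, had a log2 fold change of 0.26 (SE 0.62), with overlapping ages. The name miR-19b-1-5p, from the hairpin of miR-19b in the same run, had one of -0.69 (SE 0.59), with both old livers below both young.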
